A study of Mus musculus with 40 samples.

Results

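The 5 mouse V gene segments whose names carry both an alpha and a delta number, Trav14d-3-dv8, Trav4-4-dv10, Trav6-7-dv9, Trav13-4-dv7 and Trav21-dv12, were followed through the receptor transcripts of the T cell receptor alpha locus (Tcra) and of the T cell receptor delta locus (Trd). They were chosen by a rule on names, as the rows of families Trav4, Trav6, Trav13, Trav14 and Trav21 with a DV number. The choice was made with earlier results of these data known. They are 5 of the 111 V segments listed in either set of tables. The Trav15 and Trav16 rows with a DV name, 5 in number, are not members. The samples were thymocytes of EACBE-/- mice, which lack a binding site of the DNA-binding protein CTCF at the Tcra enhancer Ea, and of wild-type (EACBE+/+) mice, both C57BL/6 and 4 to 8 weeks old. Transcripts were copied by 5′ RACE, which adds an adapter to the 5′ end of each transcript so that no primer for a particular V segment is needed. Each genotype had 2 libraries for Trd and 2 for Tcra, 8 in all, each deposited as a table of counts per pair of V and J segment. The series title puts the question as the role of the CTCF site in Tcra rearrangement.

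A V segment is the part of a receptor gene that codes for most of the variable domain, and it is joined to a J segment (or, in Trd, to D and J segments) in the developing thymocyte. Trd lies within Tcra, between the Trav segments and the Traj segments, so that a V segment of the shared array can be used by a γδ T cell or by an αβ T cell, and a Trav to Traj joint removes Trd from that chromosome. Tcra is known to rearrange in rounds, with Trav segments near the Traj array and Traj segments at its 5′ (V-facing) end used first, and more distant Trav and more 3′ Traj segments used in later rounds.

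The 5 segments lie on chromosome 14 (GRCm38.p6, as annotated by RefSeq and the base of mm10). Trav14d-3-dv8 (chr14:53078547-53079045) stands far up the array, 1078.2 kb from Traj58 and 41st of 106 listed Trav segments from the distal end. The other 4 lie in its last part: Trav4-4-dv10 (chr14:53683677-53684177) at 473.1 kb, Trav6-7-dv9 (chr14:53709943-53710419) at 446.9 kb, Trav13-4-dv7 (chr14:53757410-53757921) at 399.4 kb and Trav21-dv12 (chr14:53876016-53876752) at 280.5 kb. Trav21-dv12 is the last listed Trav segment before the delta locus and has no listed copy, whereas the other 4 have copies of the same subgroup number with a D or N letter, or none, elsewhere in the array. The sources used here do not give how reads were divided among such near-identical copies, and the values of copies are given beside the segments where they bear on them.

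Replicate 1 libraries were shallow and replicate 2 libraries deep. The tables of Trd held 5615 and 47158 counts in EACBE-/- libraries and 1744 and 28093 in wild-type libraries, and those of Tcra held 19085 and 163953 in EACBE-/- libraries and 10694 and 172388 in wild-type libraries. All 5 segments were listed in all 8 tables. The replicate 1 Trd tables listed 22 V segments in EACBE-/- and 18 in wild type, against 103 and 88 in replicate 2. The labels do not say that replicates came from separate mice, so p-values measure the spread between libraries, which may be technical, and intervals cover counting error only. The deleted site is not read by receptor transcripts, so the tables do not check the genotype labels.

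In Trd, Trav21-dv12 and Trav13-4-dv7 were the abundant members and the other 3 were scarce. Trav21-dv12 took 4.35% and 12.01% of counts in the EACBE-/- Trd libraries, against 6.19% and 10.6% in the wild-type ones. Trav13-4-dv7 took 3.44% and 3.19% in EACBE-/-, against 3.33% and 3.42% in wild type, the steadiest share of the 5. The genotypes overlapped for Trav21-dv12 and for Trav13-4-dv7.

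Trav6-7-dv9 took 0.303% and 1.18% of Trd counts in EACBE-/- (17 and 557 counts), against 0.229% and 1.08% in wild type (4 and 303 counts), so that replicate 2 was the higher one in both genotypes. Trav4-4-dv10 had 10 and 32 counts in EACBE-/- (0.178% and 0.0679%), against 1 and 35 counts in wild type (0.0573% and 0.125%). Trav14d-3-dv8 had 23 and 9 counts in EACBE-/- (0.410% and 0.0191%), against 5 and 6 counts in wild type (0.287% and 0.0214%). For Trav14d-3-dv8 the deep libraries gave the lower share in both genotypes. Its copy Trav14-3 was listed in replicate 2 alone, at 0.481% in EACBE-/- and 0.370% in wild type, and the copies of that subgroup summed to 0.410% and 0.515% in EACBE-/-, against 0.287% and 0.406% in wild type. The level of Trav14d-3-dv8 in Trd thus could not be told apart from that of its copy in these tables. In Trd, Trav6-7-dv9 held 82.5% and 83.5% of the counts of its copies in EACBE-/- and wild-type replicate 2, and Trav13-4-dv7 held 95.3% and 93.5%.

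In Tcra the order was another. Trav4-4-dv10 and Trav6-7-dv9 were among the most used V segments of the locus: Trav4-4-dv10 was first of all V segments in EACBE-/- replicate 1, and Trav6-7-dv9 was first in replicate 2 of both genotypes. Trav4-4-dv10 took 4.77% and 3.93% of Tcra counts in EACBE-/-, against 3.18% and 2.49% in wild type. Trav6-7-dv9 took 2.59% and 4.51% in EACBE-/-, against 2.39% and 4.19% in wild type. Trav21-dv12 took 2.17% and 3.15% in EACBE-/-, against 1.66% and 2.34% in wild type.

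The 2 least used members in Tcra were Trav13-4-dv7, with 0.964% and 1.55% in EACBE-/- against 0.748% and 1.41% in wild type, and Trav14d-3-dv8, with 1.29% and 0.744% in EACBE-/- against 1.19% and 0.799% in wild type. Their ranges over the 4 libraries overlap, as do those of Trav4-4-dv10, Trav6-7-dv9 and Trav21-dv12 with one another. The lowest of these 3, Trav21-dv12, lay above the 2 least used members in every library.

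**Figure D1:**
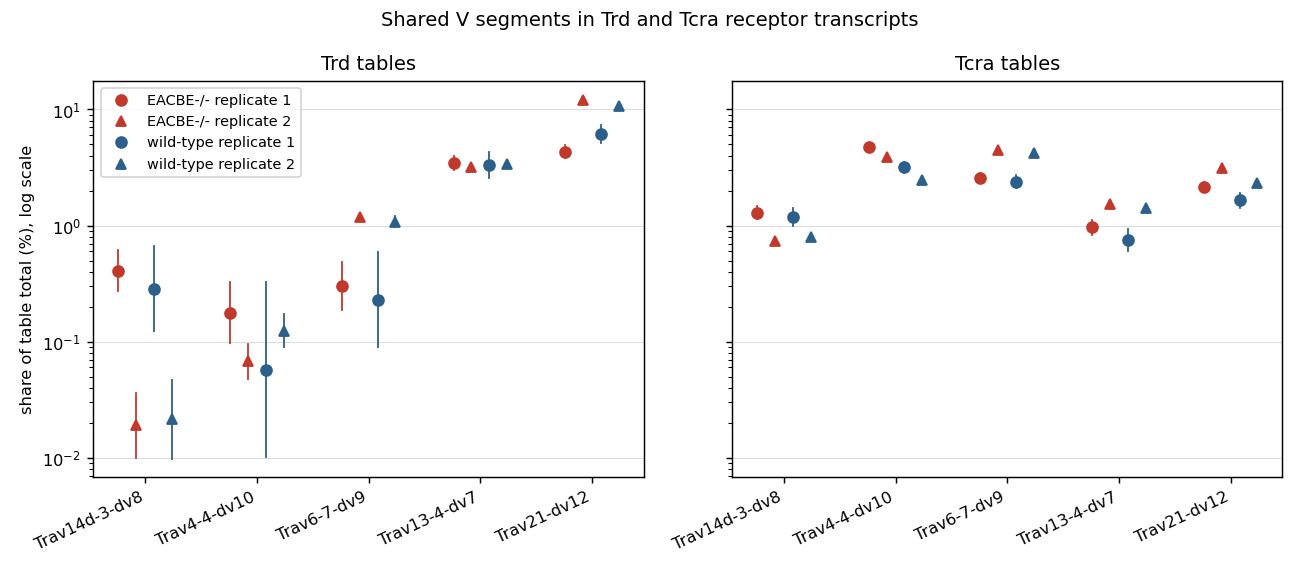
Share of the table total (percent, log axis) of each of the 5 shared V segments in the Trd tables (left panel) and the Tcra tables (right panel). Points are single libraries, EACBE-/- in red and wild type in blue, circles for replicate 1 and triangles for replicate 2, with 95% Wilson intervals. Trav13-4-dv7 lies between 3.19% and 3.44% in Trd and between 0.748% and 1.55% in Tcra, whereas Trav4-4-dv10 lies between 0.0573% and 0.178% in Trd and between 2.49% and 4.77% in Tcra.

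Trav13-4-dv7 and Trav21-dv12 were higher in Trd than in Tcra, and Trav4-4-dv10, Trav6-7-dv9 and Trav14d-3-dv8 were lower. The test (edgeR quasi-likelihood, genotypes together, Benjamini-Hochberg over the 13 V segments listed in all 8 tables) called 92.3% of those 13, with 46.2% higher and 46.2% lower in Trd, and 5 of 5 members, 2 of them higher and 3 lower. Because a segment had to be listed in the shallow Trd tables to be tested, the 13 are themselves a selection towards Trd use, and 10 of them carry a DV name. When the segments of 1 replicate were kept, 6 of 97 Trav segments (6.19%) were higher in Trd, and Trav13-4-dv7 and Trav21-dv12 were 2 of these.

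For Trav21-dv12 the log2 change in Trd over Tcra was 1.85, with an SE of 0.35 and an adjusted p of 0.00106 in edgeR. For Trav13-4-dv7 it was 1.52, with an SE of 0.38 and an adjusted p of 0.00495 in edgeR. With TMM factors, under which the median log2 change of the 13 segments was -2.28 and not -1.47, Trav13-4-dv7 was higher by 0.72 with an adjusted p of 0.265 in edgeR, and its call was lost under that alternative alone. In bulk RNA, fewer cells that use a segment and less receptor RNA per cell cannot be told apart, and since each locus had libraries of its own, neither can the locus and its library preparation.

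Trav4-4-dv10 had the largest gap, with a log2 change of -5.01 in Trd over Tcra (SE 0.55, edgeR adjusted p = 2.64e-05). Trav6-7-dv9 had a log2 change of -2.23 (adjusted p = 0.00563, SE 0.61) and Trav14d-3-dv8 one of -2.72 (adjusted p = 0.0417, SE 1.13), both in edgeR. In edgeR with the totals taken over Trav rows alone, which leaves out the Trdv segments that made up 39.29% and 40.97% of Trd counts in EACBE-/- and 58.2% and 49.1% in wild type, the adjusted p was 0.0657 for Trav6-7-dv9 and 0.153 for Trav14d-3-dv8. Trav14d-3-dv8 also missed the threshold when any of 6 of the 8 libraries was left out, with adjusted p between 0.0621 and 0.0989 in edgeR. With copies summed, the log2 change was -3.01 for the Trav14-3 subgroup (adjusted p = 0.000212 in edgeR), and the other members kept their direction and their call, with a log2 change of 0.85 for the Trav13-4 subgroup (adjusted p = 0.0170 in edgeR).

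Trav15 and Trav16 rows, the shared segments that are not members, gave 4 higher and 1 lower of 5 by the same test, with a median log2 change of 4.07 against -2.23 for the 5 members. Of the 39 rows without a DV name from the families of the members, only 2 could be tested, and both were lower in Trd.

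Between genotypes, no member passed the test in either locus when the fit held genotype alone. With the replicate number added to the fit, Trav4-4-dv10 and Trav21-dv12 passed in Tcra, as given in the closing section. In Tcra, 0 of 5 members were called by edgeR, where 6 of 106 V segments (5.66%) were, all 6 lower in EACBE-/-. DESeq2 called 0 members and 8 of the 106. At an unadjusted p under 0.05 there were 0 members and 18 V segments in edgeR, and 1 member and 15 V segments in DESeq2. All 5 members had a log2 change above 0, as had 49 of the 106, with a median of 0.21 against -0.13 over the 106. The direction of Trav14d-3-dv8, Trav6-7-dv9 and Trav13-4-dv7 turned when some single libraries were left out, and that of Trav14d-3-dv8 also with copies summed. Trav4-4-dv10, the member with the largest change, had a log2 change of 0.62 (SE 0.31, edgeR adjusted p = 0.376), and both EACBE-/- libraries lay above both wild-type libraries, as they did for 25.5% of all Tcra V segments; it was the only member whose groups did not overlap in Tcra, where 50% of V segments did not. Trav21-dv12 had a log2 change of 0.41 (SE 0.34, edgeR adjusted p = 0.589) with overlapping libraries. The overlap lay between EACBE-/- replicate 1 (2.17%) and wild-type replicate 2 (2.34%). Within replicates 1 and 2, its EACBE-/- share over the wild-type share was 1.311 and 1.348, and that of Trav4-4-dv10 was 1.501 and 1.578. The ratios were 1.081 and 1.077 for Trav6-7-dv9, 1.289 and 1.096 for Trav13-4-dv7, and 1.09 and 0.931 for Trav14d-3-dv8. Same-numbered libraries were not taken as a pairing.

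The summed share of the 5 segments in Tcra was 11.8% and 13.9% in EACBE-/-, against 9.16% and 11.2% in wild type. The groups did not overlap, and the two-sided exact permutation p was 0.333, the smallest that 2 libraries against 2 allow. In Trd the summed share was 8.67% and 16.5% in EACBE-/-, against 10.1% and 15.3% in wild type, with overlapping groups.

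In Trd, 0 of 5 members and 0 of the 21 V segments tested (0%) were called between genotypes by edgeR, and 0 by DESeq2. In simulated counts with 4-fold changes put in, the edgeR fit recovered 1.25% of the changes. The 0 calls thus do not show that the genotypes were alike. At an unadjusted p under 0.05 there were 0 members and 3 V segments in edgeR, and 0 members and 1 V segment in DESeq2. The adjusted p of each member was 0.997 in edgeR, with log2 changes between -0.04 and 0.61. The SE of these changes was 0.33 for Trav13-4-dv7 and 0.63 for Trav21-dv12, but between 1.17 and 2.22 for the 3 scarce members. The groups overlapped in all 5 members, whereas 28.6% of the 21 V segments had groups that did not overlap, and in 19% both EACBE-/- libraries were the higher. The change between genotypes was not shown to differ between Trd and Tcra for any member: the interaction of locus and genotype had an adjusted p of 0.996 for each, and 0 of the 13 segments tested (0%) passed it in edgeR, also 0 at an unadjusted p under 0.05.

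The segments differed in the Traj partners they had in Tcra, and their mean 5′ shares stood in the order of their distance to Traj58. Traj segments were grouped as 5′ (Traj61 to Traj42, 13 listed), middle (Traj41 to Traj22, 16 listed) and 3′ (Traj21 to Traj1, 14 listed). Trav21-dv12 was joined to 5′ Traj segments in 80.9% and 82.6% of its counts in EACBE-/- and in 81.4% and 84.8% in wild type. Its leading partners, by mean share over the 4 libraries here and for the other members, were Traj57, Traj58 and Traj56, which stand at the V-facing end of the array. Traj57 took 14.3% and 12.6% of its counts in EACBE-/-, against 21.5% and 15.0% in wild type.

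Trav13-4-dv7 came next, with 66.8% and 70.0% of its counts on 5′ Traj segments in EACBE-/- and 70.0% and 61.6% in wild type, led by Traj56, Traj49 and Traj58. Trav6-7-dv9 had 51.4% and 51.7% there in EACBE-/- and 55.5% and 49.1% in wild type, led by Traj49, Traj52 and Traj42. Trav4-4-dv10 had 48.8% and 48.7% in EACBE-/- and 52.6% and 49.3% in wild type, led by Traj43, Traj49 and Traj40. Trav6-7-dv9 and Trav4-4-dv10, near each other in the array, had overlapping ranges.

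Trav14d-3-dv8 was the member with few 5′ partners, with 27.1% and 23.3% in EACBE-/- and 18.9% and 19.0% in wild type. Its leading partners over the 4 libraries were Traj31, Traj12 and Traj30, in the middle and 3′ parts of the array. Traj31 took 5.67% and 6.48% of its counts in EACBE-/-, against 3.94% and 3.78% in wild type, and Traj30 took 6.48% and 4.27% in EACBE-/-, against 3.15% and 2.11% in wild type. Traj12 took 3.24% and 2.87% in EACBE-/-, against 5.51% and 4.94% in wild type. Compared with all other V segments of the same library, the 5′ share of Trav14d-3-dv8 was lower in 4 of 4 libraries, by 11.9 points on average. That of each of the 4 members near the delta locus was higher in 4 of 4 libraries, by 16.6 points for Trav4-4-dv10, 18.7 for Trav6-7-dv9, 33.6 for Trav13-4-dv7 and 49.7 for Trav21-dv12. The two-sided exact sign-flip permutation p was 0.125 for each of the 5, the smallest that 4 libraries allow.

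**Figure D2:**
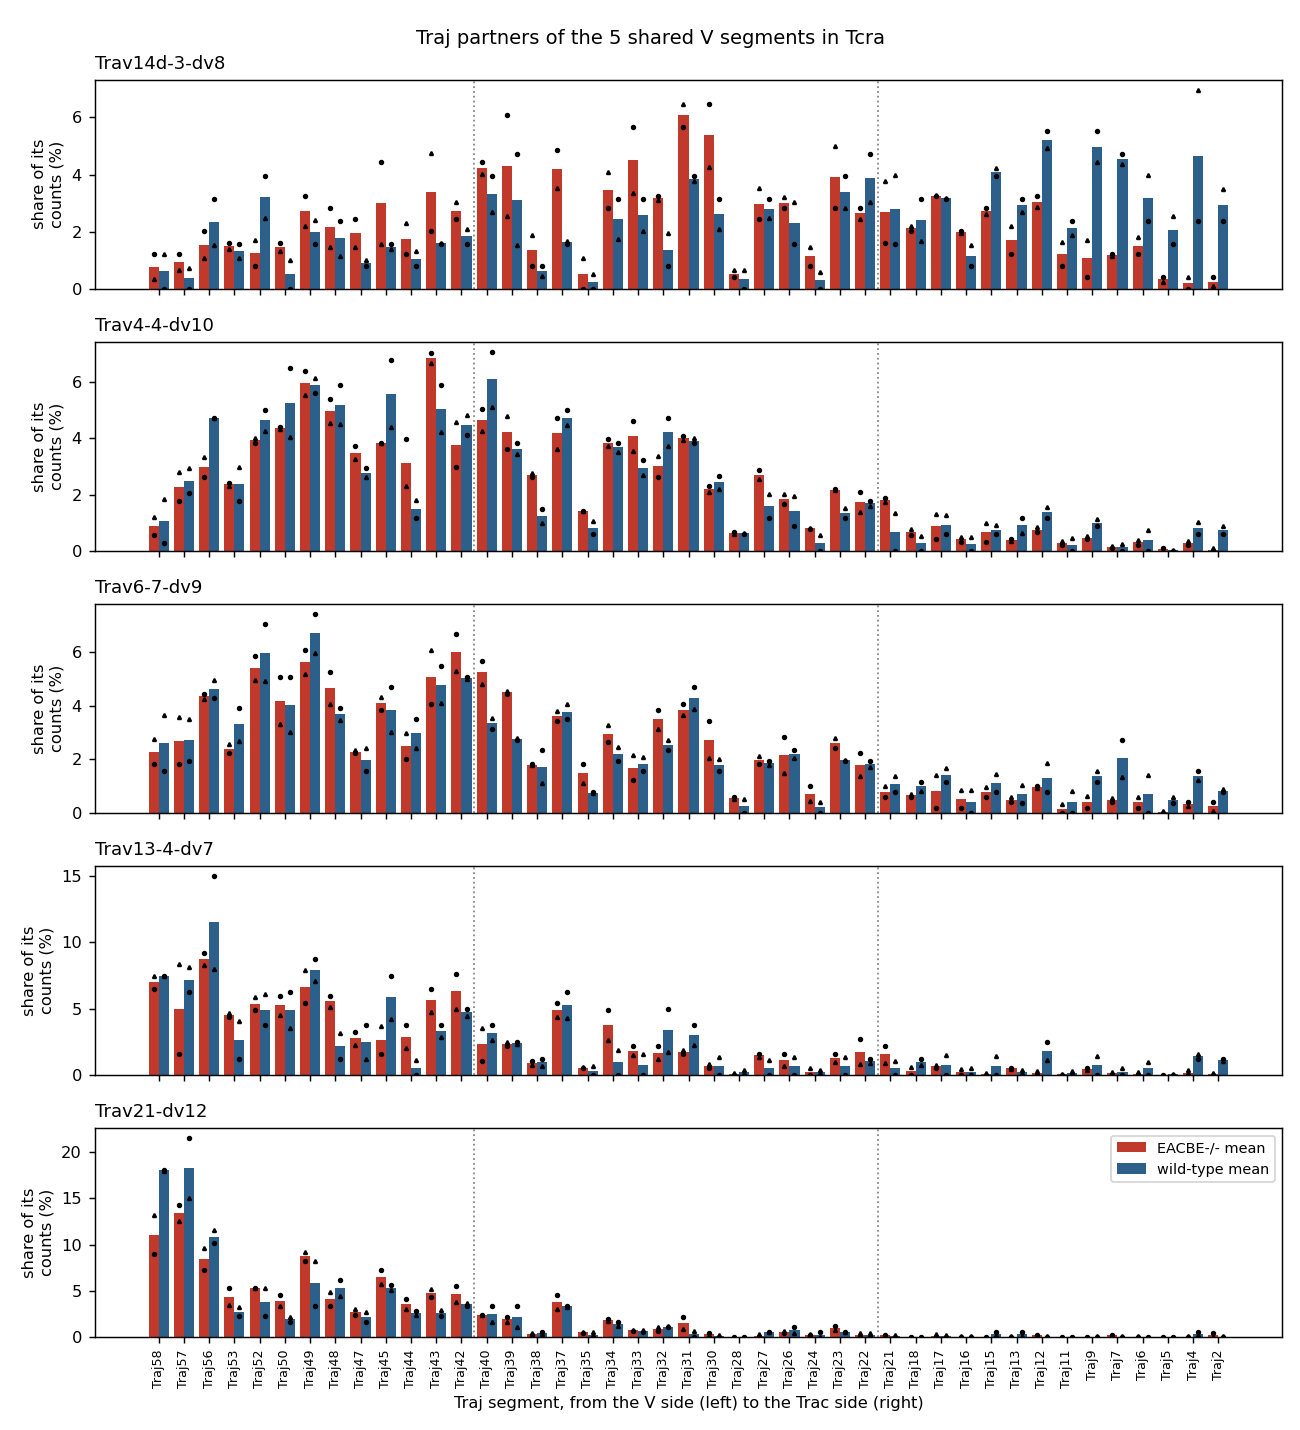
Share of each shared V segment's Tcra counts (percent) joined to each of the 43 listed Traj segments, ordered from the V side at the left to the Trac side at the right. Bars are means of 2 libraries, EACBE-/- in red to the left of wild type in blue, black circles and triangles are replicates 1 and 2, and dotted lines part the 5′, middle and 3′ groups. Trav21-dv12 peaks at Traj57 and Traj58, Trav4-4-dv10 and Trav6-7-dv9 spread over the 5′ and middle groups, and Trav14d-3-dv8 reaches the 3′ end, where its wild-type bars at Traj4 and Traj2 stand above the EACBE-/- bars.

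As 1 number per segment, the count-weighted mean position of the Traj partners was taken in kb downstream of Traj58 and averaged over the 4 Tcra libraries. It was 10.997 kb for Trav21-dv12, 16.6 kb for Trav13-4-dv7, 21.5 kb for Trav4-4-dv10, 21.8 kb for Trav6-7-dv9 and 33.0 kb for Trav14d-3-dv8. Means in EACBE-/- and wild type were 11.9 and 10.1 kb for Trav21-dv12, 16.2 and 17.0 kb for Trav13-4-dv7, and 21.7 and 21.3 kb for Trav4-4-dv10. They were 21.1 and 22.6 kb for Trav6-7-dv9 and 29.7 and 36.4 kb for Trav14d-3-dv8. The ranks, the correlation and the positions of copies below take both genotypes together. Among the 59 V segments with at least 50 counts in every Tcra library, Trav21-dv12 ranked first from the V-facing end, Trav13-4-dv7 ranked 3, Trav4-4-dv10 ranked 8, Trav6-7-dv9 ranked 10 and Trav14d-3-dv8 ranked 46. Over those 59 segments, which share the same 4 libraries, the Spearman correlation of mean Traj position with distance to Traj58 was 0.749.

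Copies of a member far from it in the array had other mean Traj positions, where they could be compared. Trav4n-4, Trav6n-7, Trav13d-4 and Trav13n-4 had 29, 9, 37 and 43 Tcra counts in wild-type replicate 1. They were thus not among the 59 V segments, and Trav13-4-dv7 had no copy to compare. Trav14-3, 393.6 kb from Traj58, had a mean Traj position of 17.1 kb, against 30.8 kb for Trav14n-3 at 786.7 kb and 33.0 kb for Trav14d-3-dv8 at 1078.2 kb. Trav4d-4, at 1165.9 kb, had 33.1 kb, against 21.5 kb for Trav4-4-dv10 at 473.1 kb. Trav6d-7, at 1149.2 kb, had 32.1 kb, against 21.8 kb for Trav6-7-dv9 at 446.9 kb. In each of these sets the copy nearer to the Traj array had the more V-facing mean position.

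**Figure D3:**
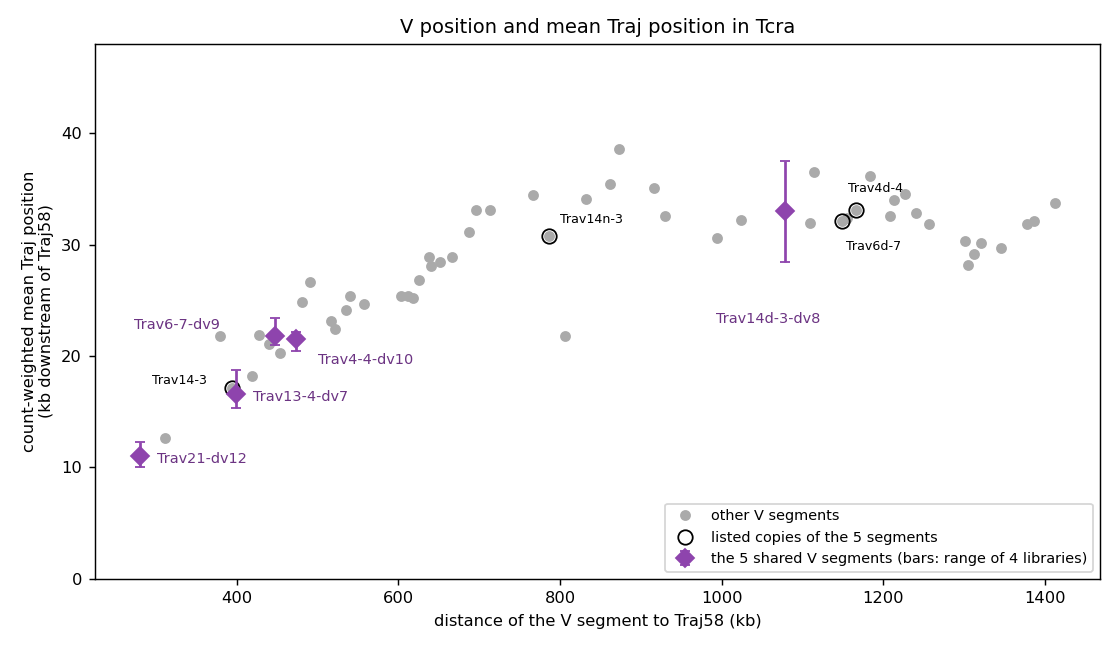
Count-weighted mean Traj position (kb downstream of Traj58, mean of 4 Tcra libraries) against the distance of the V segment to Traj58 (kb) for 59 V segments. Purple diamonds are the 5 shared V segments with the range of the 4 libraries as bars, black circles those of their copies that are among the 59, and grey points the other V segments. Trav21-dv12 has the lowest mean position, 10.997 kb, and Trav14d-3-dv8, at 33.0 kb, lies among the distal segments.

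Likeness of Traj profiles was measured over the 4 Tcra libraries as the share of counts that would have to move to turn one profile into the other, against 58 other V segments each. The profile of Trav21-dv12 was nearest to those of Trav19 (17.2%) and Trav13-4-dv7 (20.9%). That of Trav13-4-dv7 was nearest to Trav14-3 (14.3%) and Trav19 (16.01%). Trav4-4-dv10 was nearest to Trav5-4 (10.1%) and Trav6-7-dv9 (11.03%), and Trav6-7-dv9 to Trav5-4 (10.6%) and Trav4-4-dv10 (11.03%). Trav14d-3-dv8 was nearest to Trav6d-7 (13.2%) and Trav12d-2 (13.6%), both more distal segments of the array, and farthest of all 58 from Trav21-dv12 (61.01%).

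The mean 3′ Traj share was lower in EACBE-/- than in wild type for all 5 segments, by unlike amounts in points. Without wild-type replicate 2 it was higher for Trav4-4-dv10, and without EACBE-/- replicate 1 for Trav21-dv12. The mean Traj position did not fall in all 5 segments. For Trav21-dv12 it was 12.2 and 11.6 kb in EACBE-/-, against 10.02 and 10.1 kb in wild type. For Trav4-4-dv10 it was 21.6 and 21.9 kb in EACBE-/-, against 20.5 and 22.2 kb in wild type, with overlapping groups. Genotype means of Trav14d-3-dv8, Trav6-7-dv9 and Trav13-4-dv7 were lower in EACBE-/-. V segments other than Trav21-dv12 together stood at 26.3 and 26.1 kb in EACBE-/-, against 29.6 and 30.4 kb in wild type. Trav14d-3-dv8 had 20.6% and 26.0% of its counts on 3′ Traj segments in EACBE-/-, against 42.5% and 49.9% in wild type, a difference of -22.9 points. Trav6-7-dv9 had 5.26% and 9.08% in EACBE-/-, against 11.7% and 17.0% in wild type, a difference of -7.16 points. Trav13-4-dv7 had 3.80% and 5.29% in EACBE-/-, against 6.25% and 12.99% in wild type, a difference of -5.08 points. In these 3 members both EACBE-/- libraries lay below both wild-type libraries, as they did in 67.8% of the 59 V segments, so that 3 of 5 is near the background. With each library left out in turn, the difference ran between -26.6 and -19.2 points for Trav14d-3-dv8. It ran between -9.78 (without wild-type replicate 1) and -4.55 points (without wild-type replicate 2) for Trav6-7-dv9. For Trav13-4-dv7 it ran between -8.45 and -1.70 points, without the same 2 libraries.

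Trav4-4-dv10 had 5.93% and 8.36% in EACBE-/-, against 5.59% and 11.3% in wild type. Trav21-dv12 had 1.21% and 1.86% in EACBE-/-, against 1.69% and 1.98% in wild type. The groups overlapped in both, and the differences were -1.28 and -0.31 points; with 1.98% at most in wild type, Trav21-dv12 had little 3′ joining in either genotype. All V segments other than Trav21-dv12 together had 14.9% and 17.3% in EACBE-/-, against 24.4% and 30.3% in wild type, a difference of -11.2 points. The two-sided exact permutation p was 0.333 for each non-overlapping difference, the smallest possible.

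Each member was also set against all other V segments of its own library, whose 3′ share itself was lower in EACBE-/-. For Trav21-dv12 the 3′ share lay 13.7 and 15.5 points below that of the other V segments in EACBE-/-, against 22.7 and 28.3 points below in wild type. For Trav14d-3-dv8 it lay 6.13 and 9.23 points above in EACBE-/-, against 18.8 and 20.4 points above in wild type. Ranked by the size of the fall among the 59 V segments, whose median difference was -11.4 points, Trav14d-3-dv8 ranked 6, Trav6-7-dv9 ranked 36, Trav13-4-dv7 ranked 41, Trav4-4-dv10 ranked 50 and Trav21-dv12 ranked 52. Over the 59 segments the Spearman correlation of this difference with distance to Traj58 was -0.769, with the same 4 libraries behind every point. A fall in points cannot exceed the wild-type share, so these ranks and this correlation depend on that share as well. Mean 3′ shares in EACBE-/- and wild type were 23.3% and 46.2% for Trav14d-3-dv8 and 7.17% and 14.3% for Trav6-7-dv9. They were 4.55% and 9.62% for Trav13-4-dv7, 7.15% and 8.43% for Trav4-4-dv10, and 1.53% and 1.84% for Trav21-dv12. The fall relative to wild type was not ranked.

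**Figure D4:**
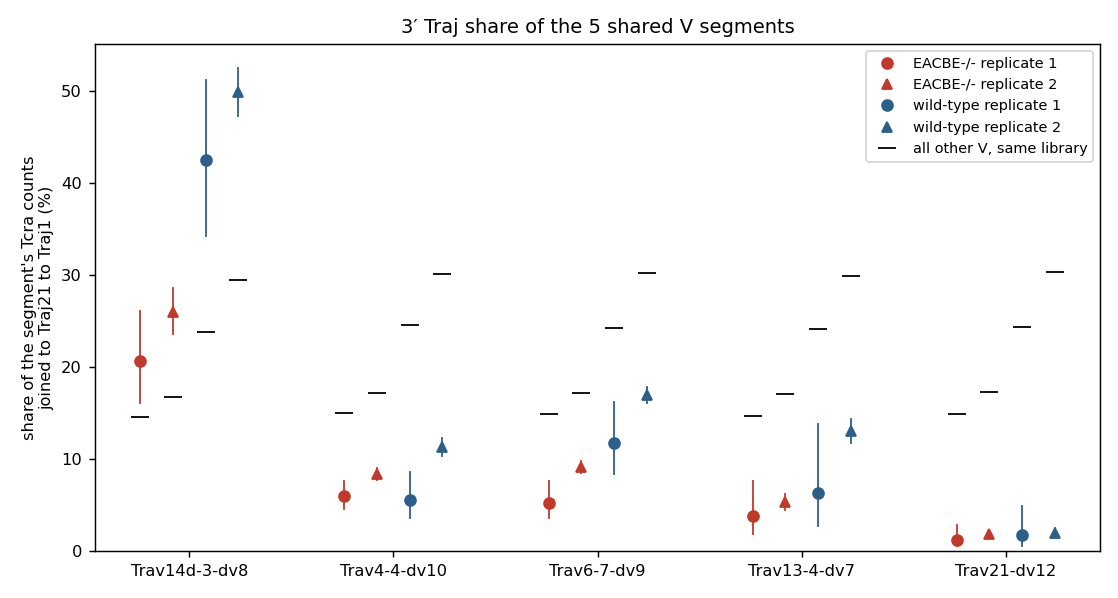
Share of each shared V segment's Tcra counts joined to Traj21 to Traj1 (percent), by library, EACBE-/- in red and wild type in blue, with 95% Wilson intervals; black dashes are all other V segments of the same library. Trav14d-3-dv8 lies above the dashes in all 4 libraries and the other 4 segments below them. The EACBE-/- points of Trav14d-3-dv8, 20.6% and 26.0%, lie under its wild-type points, 42.5% and 49.9%.

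What Trav14d-3-dv8 lacked at the 3′ end in EACBE-/- stood mostly in the middle of the array. Its middle Traj share was 52.2% and 50.7% in EACBE-/-, against 38.6% and 31.1% in wild type, and its 5′ share was higher in EACBE-/- as well, as in 49.2% of the 59 V segments. Trav6-7-dv9 had a middle share of 43.3% and 39.2% in EACBE-/-, against 32.8% and 33.9% in wild type. For Trav4-4-dv10 it was 45.2% and 43.0% in EACBE-/-, against 41.8% and 39.5% in wild type. The groups overlapped for Trav13-4-dv7 and Trav21-dv12. V segments other than Trav14d-3-dv8 together had 49.4% and 44.6% in EACBE-/-, against 46.8% and 38.7% in wild type, with overlapping groups. How many of the 59 V segments had parted groups in the middle share was not counted. In Trav4-4-dv10 the 5′ share was lower in both EACBE-/- libraries than in both wild-type libraries, which 11.9% of the 59 segments showed. The gap was small: EACBE-/- replicate 1 had 48.8% and wild-type replicate 2 had 49.3%, with overlapping Wilson intervals. The difference was -2.20 points, and it ran between -3.89 and -0.502 points with each library left out.

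Single V-J pairs were then tested as shares of the table total. Of 2417 pairs, 81 (3.35%) were called between genotypes, and 3 of the 172 tested pairs of the members. Trav14d-3-dv8 with Traj4 had 0 and 5 counts in EACBE-/-, against 3 and 96 in wild type, a log2 change of -4.11 (SE 0.86, edgeR adjusted p = 0.00339). Trav14d-3-dv8 with Traj2 had 1 and 1 counts in EACBE-/-, against 3 and 48 in wild type, a log2 change of -4.38 (SE 1.10, edgeR adjusted p = 0.0194). Traj2 and Traj4 lie at the 3′ end of the array.

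The third pair ran the other way and used a middle Traj segment: Trav4-4-dv10 with Traj38 had 24 and 178 counts in EACBE-/-, against 5 and 43 in wild type, a log2 change of 1.95 (SE 0.54, edgeR adjusted p = 0.0390). None of the 3 was called by DESeq2, whose adjusted p was 0.124, 0.349 and 0.325 in the order given. Without EACBE-/- replicate 2, and also without wild-type replicate 2, 0 pairs of the members were called. Among the 42 tested pairs of the members with 3′ Traj segments, 11 had a log2 change above 0 and the median was -0.59, against -0.57 over all 646 pairs of that group.

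Each member's Traj counts were also tested against that member's own Tcra total, in a fit added after the data were seen and run on the members alone. Traj2 and Traj4 fell in EACBE-/- in Trav14d-3-dv8, Trav4-4-dv10, Trav6-7-dv9 and Trav13-4-dv7. In Trav21-dv12 both had too few counts to be tested, with 0 and 6 counts of Traj4 in EACBE-/-, against 1 and 9 in wild type. Both were also lower in V segments that are no member, whose values are given below. In edgeR, 8 of 35 Traj segments (22.9%) were called for Trav14d-3-dv8, 5 of 40 (12.5%) for Trav4-4-dv10, 4 of 43 (9.3%) for Trav6-7-dv9, 3 of 31 (9.68%) for Trav13-4-dv7 and 0 of 26 (0%) for Trav21-dv12, which had 2 at an unadjusted p under 0.05. These are 20 calls in all, and 0 were made without wild-type replicate 2, 7 without EACBE-/- replicate 2 and 10 without wild-type replicate 1.

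For Trav14d-3-dv8, Traj2, Traj4, Traj5, Traj7, Traj9 and Traj12 fell, and Traj31 and Traj37 rose. For Trav4-4-dv10, Traj2, Traj4 and Traj56 fell, and Traj38 and Traj43 rose. For Trav6-7-dv9, Traj2, Traj4 and Traj5 fell and Traj39 rose, and for Trav13-4-dv7, Traj2, Traj4 and Traj12 fell.

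For Traj2 the log2 change within the segment was -4.43 in Trav14d-3-dv8, -3.33 in Trav4-4-dv10, -2.87 in Trav6-7-dv9 and -2.80 in Trav13-4-dv7, with SE between 0.56 and 0.76 and adjusted p of 0.0130, 3.44e-05, 0.00642 and 0.000143 in edgeR. The counts were small: Trav4-4-dv10 with Traj2 had 0 and 6 counts in EACBE-/-, against 2 and 38 in wild type. V segments that are no member also had less Traj2, 0.172% and 0.235% of their counts in EACBE-/-, against 0.649% and 1.95% in wild type, and less Traj4, 0.481% and 0.642% in EACBE-/-, against 1.79% and 3.05% in wild type. Trav21-dv12 had 2 and 2 counts with Traj2 in EACBE-/-, against 0 and 7 in wild type. Whether the fall at Traj2 differed between members, or between members and other V segments, was not tested.

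In Trd, the 5 segments were joined almost always to Trdj1. The Trdj2 share over the 4 libraries pooled was 0.6002% for Trav21-dv12 (54 of 8997 counts, 95% Wilson interval 0.460% to 0.782%), 1.88% for Trav13-4-dv7 (51 of 2717, 1.43% to 2.46%) and 1.14% for Trav6-7-dv9 (10 of 881, 0.618% to 2.08%). Trav4-4-dv10 had 2 of 78 counts and Trav14d-3-dv8 had 1 of 43 with Trdj2. The pooled values follow the deep libraries, and their intervals do not cover the spread between libraries. EACBE-/- replicate 2 alone gave 5664 of the 8997 counts of Trav21-dv12. By library the Trdj2 share of Trav21-dv12 was 0.410% and 0.512% in EACBE-/-, against 3.70% and 0.671% in wild type. That of Trav13-4-dv7 was 2.07% and 1.59% in EACBE-/-, against 1.72% and 2.29% in wild type. Over all V segments of a Trd library the share was 0.873% and 0.831% in EACBE-/-, against 0.917% and 0.990% in wild type. The share of Trav13-4-dv7 was above that of Trav21-dv12 in 3 of 4 libraries, and below it in wild-type replicate 1, where 1 of 58 and 4 of 108 counts were with Trdj2. Between genotypes 0 of the 26 V-Trdj pairs tested (0%) were called by edgeR, with 3 at an unadjusted p under 0.05, of which 0 of the 7 pairs of the members; DESeq2 called 1 pair, none of a member.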

How the data were processed

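Per the labels' protocols, thymocyte RNA was copied by 5′ RACE with template switching. The authors deposited each library as whole-number counts per V-J pair; the sources used here name no assignment tool and do not state if counts are reads or receptors. If they are reads, an amplified transcript weighs more than a rare one. The build was mm10, per the submitters' processing notes. Of the 40 samples, 8 were used (4 Tcra and 4 Trd libraries); the others were not analysed here.

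All 111 V names matched RefSeq genes of GRCm38.p6. Sums of counts per segment were tested in edgeR 4.0.16 (R 4.3.3; glmQLFit, glmQLFTest, filterByExpr; library sizes were table totals without TMM factors), with Benjamini-Hochberg adjustment over all features and a threshold of 0.05. Segments listed in 1 replicate alone stayed in the totals and out of the tests. DESeq2 1.42.0 was an alternative, and scripts were tested on simulated counts. Of 4-fold changes put into those counts, edgeR recovered 30.5% for Tcra V segments and 1.25% for Trd V segments. It recovered 37.2% for Tcra V-J pairs, 4.5% for V-Trdj pairs and 65.8% for Trd against Tcra. Shares were compared by two-sided exact permutation tests (scipy 1.17.1), and intervals are Wilson at 95%. No value was divided by segment length. Other alternatives were TMM factors, no filter, the replicate number as a block, copies summed, narrower Traj groups (Traj61 to Traj50 and Traj12 to Traj1 as the ends), each pair counted once and each library left out.

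Named were the 5 members, their 3 leading Traj partners, their pairs past the threshold, the 2 V segments most alike in Traj profile among those with 50 or more counts in every Tcra library, and their copies. The members and lists were chosen with earlier results of these data known. The fit of each member's Traj counts, the totals over Trav rows alone, and the Trav segments alone as comparator were added after the data were seen.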

Additional observations from a re-analysis of the deposited data

How the results depend on the processing

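The Trd against Tcra calls of Trav4-4-dv10 and Trav21-dv12 kept their direction and their side of the threshold under every alternative run, with log2 changes between -5.69 and -4.15 and between 1.07 and 2.75. Replicate 1 libraries held few counts, and leaving out any 1 library leaves a group with 1 sample whose spread is assumed to be like that of the others. The segments of 1 replicate, when kept, raised the calls in Trd against Tcra to 86 of 97. In Trd the SE of the change between genotypes was 1.17 to 2.22 on the log2 scale for Trav14d-3-dv8, Trav4-4-dv10 and Trav6-7-dv9.

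Calls of V segments in Tcra numbered 6, and 12 with copies summed; each library left out gave 2 to 4. Calls of V-J pairs in Tcra numbered 81, and 18 with DESeq2 and 129 with no filter; each library left out gave 0 to 150. Of the members' pairs 3 were called, 0 with DESeq2, and 0 to 5 with each library left out. V-Trdj pairs gave 0 calls, and 1 with TMM factors and 1 with DESeq2. The 20 Traj calls within members became 0 to 28 with each library left out. The fall of the 3′ share in both EACBE-/- libraries was seen in 3 of 5 members. In the narrower 3′ group (Traj12 to Traj1) Trav4-4-dv10 joined those 3, and Trav21-dv12 did not. Trav4-4-dv10 had 1.98% and 2.76% there in EACBE-/-, against 3.24% and 6.08% in wild type. How common this was over all V segments was not counted for the narrower group. In the wider groups the fall was seen in 0 members with each V-J pair counted once. With each library left out it was seen in 3 to 5. Leaving out a library cannot make parted groups overlap, so the number could not drop under 3 and this range is no check. Replicate 2 libraries list 42 or 43 of the 43 Traj segments for every member, so pairs counted once follow how many Traj segments a library lists and say nothing of this fall.

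The replicate numbers name the libraries, and with 2 pairs they were not taken as a pairing; deviations of same-numbered libraries from their group means correlated at 0.849 in Tcra and 0.903 in Trd. With the replicate number as a block, calls became 49 for Tcra V segments, 3 for Trd V segments, 716 for Tcra pairs (50 of the members) and 2 for V-Trdj pairs; Trav4-4-dv10 (adjusted p = 0.000157 in edgeR) and Trav21-dv12 (0.00947) passed in Tcra. Under the block, Trav14d-3-dv8 in Tcra reversed to -0.0083 and Trav4-4-dv10 in Trd to -0.56 on the log2 scale.

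Without the block no member passed the Tcra or Trd V test, and several directions turned. In Tcra, Trav4-4-dv10 and Trav21-dv12 kept theirs under every alternative, with log2 changes between 0.36 and 0.80 and between 0.11 and 0.69. With copies summed, Trav14d-3-dv8 had a log2 change of -0.25 in Tcra. With each library left out, Tcra log2 changes ran between -0.41 and 0.39 for Trav14d-3-dv8, -0.35 and 0.57 for Trav6-7-dv9, and -0.18 and 0.75 for Trav13-4-dv7. In Trd they ran between -2.71 and 3.26 for Trav14d-3-dv8, -0.54 and 1.06 for Trav4-4-dv10, -1.16 and 1.70 for Trav6-7-dv9, -0.0803 and 0.0266 for Trav13-4-dv7, and -0.96 and 0.51 for Trav21-dv12. The summed share in Trd, -0.102 points, became 0.124 when totals held only segments that both replicates list, and lay between -4.001 and 3.80 with each library left out. The cause of these changes was not tested.

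Narrower Traj groups turned the 5′ difference to -0.870 points for Trav14d-3-dv8 and -2.75 for Trav13-4-dv7, and the 3′ difference to 0.178 for Trav21-dv12. Counting each pair once, with the same limit, turned the 5′ difference of Trav13-4-dv7 to -5.12, the middle difference of Trav4-4-dv10 to -1.94, and the 3′ differences of Trav4-4-dv10, Trav6-7-dv9 and Trav21-dv12 to 4.67, 0.160 and 0.724 points. With each library left out, the 3′ difference ran between -4.13 and 1.56 for Trav4-4-dv10 and -0.632 and 0.0172 for Trav21-dv12, the 5′ difference between -3.89 and 2.46 for Trav6-7-dv9, -1.57 and 6.79 for Trav13-4-dv7 and -3.09 and 0.381 for Trav21-dv12, and the middle difference between -0.219 and 3.54 for Trav21-dv12.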
